A study of Rattus norvegicus with 50 samples.

Results

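The comparison follows the liver injury caused by a single dose of galactosamine between 3 h and 24 h after the injection. It covers 12 livers of the 50 in the study and all 14217 genes that the array named with 1 symbol. Members were chosen by their labels: 3 galactosamine rats at 24 h, 3 vehicle rats at 24 h, 3 galactosamine rats at 3 h and 3 vehicle rats at 3 h. All were female Brown Norway rats (Bn/Crl, MHC haplotype RT1n), 9 to 11 weeks old. Galactosamine was given into the peritoneum at 750 mg/kg, and vehicle rats had a sham injection. Galactosamine and vehicle rats also had a sham oral dose, 2 h before sampling in the 24 h groups and 5 h before it in the 3 h groups. The times therefore differ in the hours since oral handling as well as in the time since the injection. For one comparison at the end, 3 rats at each time had taken nevirapine, an antiretroviral drug, by mouth at 150, 100 and then 75 mg/kg for 7 d before the same galactosamine dose, and went on taking it (the combination). Nothing in the labels says that livers were pooled. The study asked how the combination leads to fibrosis over 8 d when neither drug alone does so.

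Galactosamine is a sugar amine that hepatocytes take up and convert through the galactose pathway. Its products bind uridine nucleotides, so that the hepatocyte runs short of UTP and its RNA synthesis, and then its protein synthesis, is held back. The compound is a classic model of acute hepatitis in the rat, in which single hepatocytes die and macrophages gather around them.

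Signals are log2 values on a common scale, so that 1 unit is a doubling. The effect at a time is the mean of the galactosamine rats minus the mean of the vehicle rats of that time, with its standard error from the fit after the ± sign (3 rats per group). The time difference is the effect at 24 h minus the effect at 3 h, and a positive value means more transcript at 24 h than at 3 h relative to vehicle. A gene was called changed when its adjusted p from limma lay under 0.05. Array values are relative to the total signal of a liver, so they do not show how much RNA a liver held. In bulk tissue, fewer cells of a type and less RNA per cell cannot be told apart.

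The medians of the 12 arrays lay between 4.987 and 5.074. On average an array correlated with the others of its group at 0.984 to 0.989 in galactosamine rats at 24 h, and at 0.993 to 0.995 in the other 3 groups. Signals of the GAPDH control probe sets for the 3′ and 5′ ends of the transcript differ more where RNA is broken, and this difference was 0.391 to 0.531 in galactosamine rats at 24 h and 0.209 to 0.672 in vehicle rats at 24 h. It was 0.127 to 0.2 in galactosamine rats at 3 h and 0.192 to 0.543 in vehicle rats at 3 h. The galactosamine rats at 24 h thus lay above those at 3 h without overlap. With this difference as a covariate, 7148 genes were called, against 7384 without it. The tissue label was borne out by hepatocyte genes. Albumin (Alb) lay between 14.13 and 14.19 in all 12 livers, near the top of the scale, and Ttr, Apoa1, Serpinc1, Cps1 and Cyp2e1 all lay above 12. Signals of probe sets for bacterial genes averaged up to 4.37, and a group mean under this level was not taken as exceeding background. A fold against such a group is a lower limit, taken from the brighter group's mean to 4.37, and is written with "at least".

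The response of the liver differed between 24 h and 3 h in its direction as well as its size. The time difference was called for 7384 genes, which is 51.9% of those tested, with 3930 higher (27.6%) and 3454 lower (24.3%). These shares of all genes are the ones to set beside the counts of each gene list below. At 24 h, 8357 genes differed from vehicle (58.8%; 30.2% higher and 28.5% lower). At 3 h, 4680 did (32.9%; 14.9% higher and 18% lower). The 2 effects share no rat, so their directions can be set side by side.

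A large group of genes crossed from one side of vehicle to the other. In all, 1314 genes were higher than vehicle at 24 h and lower than vehicle at 3 h, with median effects of 0.96 at 24 h and -0.71 at 3 h. They were 15.7% of the genes called at 24 h and 28.1% of those called at 3 h. The opposite course was taken by 598 genes, lower than vehicle at 24 h and higher than vehicle at 3 h, with median effects of -0.72 at 24 h and 0.53 at 3 h. By comparison, 735 genes were higher at both times and 579 were lower at both. Genes with a called time difference that were not called at 3 h made up 1820 late rises and 1933 late falls at 24 h. Among time differences of more than 8-fold there were 194 rises and 78 falls. The falls were in genes of high signal, with a median of 9.56 in vehicle rats at 24 h, and the rises in genes of lower signal, with a median of 6.58 there. This vehicle signal is itself part of the time difference, and a dim gene has little room to fall. The contrast therefore follows in part from the choice of genes.

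**Figure D1:**
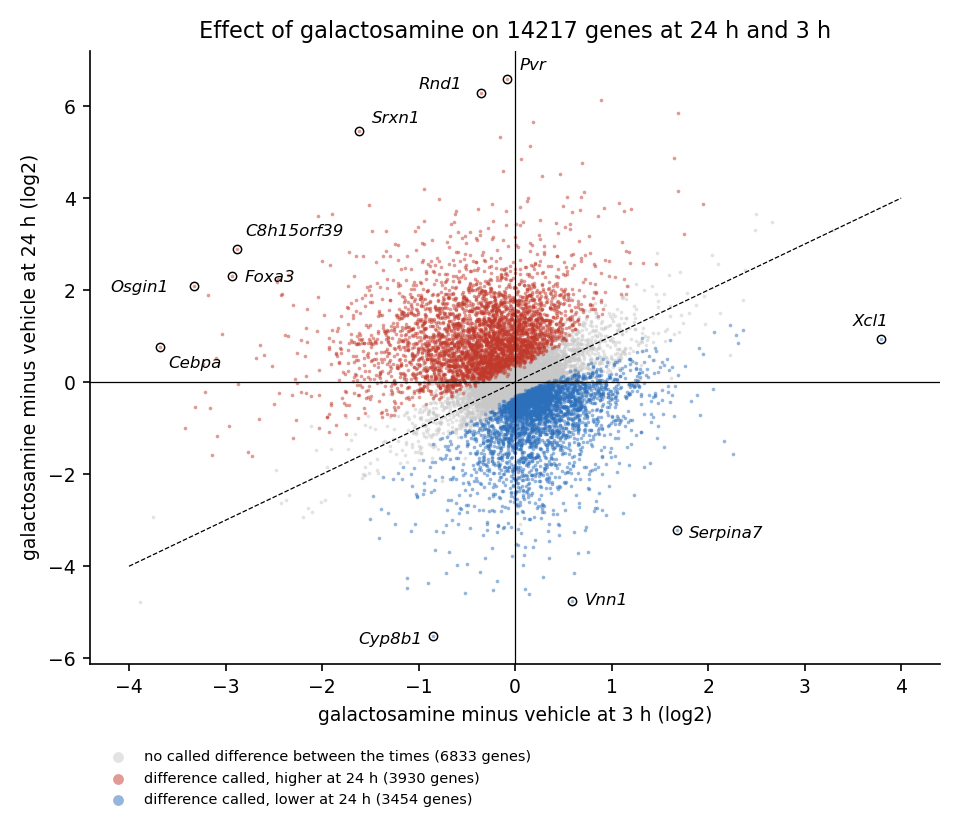
Each point is a gene, with its galactosamine minus vehicle difference at 24 h on the vertical axis and at 3 h on the horizontal axis (both log2). Red points mark the 3930 genes with a higher called time difference and blue points the 3454 with a lower one, and the dashed line marks equal effects. Many red points lie left of 0 and above 0, where genes were above vehicle at 24 h and below it at 3 h.

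The gene with the largest rise was also one that had crossed. Srxn1, which encodes sulfiredoxin, an enzyme that repairs oxidised peroxiredoxins, stood at 12.73, 12.16 and 12.86 in galactosamine rats at 24 h, against 6.9, 7.26 and 7.22 in vehicle rats at 24 h. At 3 h it stood at 5.87, 5.23 and 5.44 in galactosamine rats and at 7.47, 7.12 and 6.79 in vehicle rats. The galactosamine rats thus lay above all vehicle rats at 24 h and below all of them at 3 h. A second, dimmer probe set of Srxn1 gave a time difference of log2 -0.11. From the brighter probe set it was log2 7.07 ± 0.59 (adjusted p = 7.29e-13), made of a 43.9-fold excess at 24 h and a 3.06-fold deficit at 3 h. Osgin1, another gene of the oxidative stress response, went the same way. It had 12.23, 12.07 and 13.22 in galactosamine rats at 24 h against 10.43, 10.16 and 10.64 in vehicle rats, and 7.36, 7.4 and 7.52 in galactosamine rats at 3 h against 10.95, 10.65 and 10.67 in vehicle rats. Its effects were log2 2.10 ± 0.43 at 24 h and -3.33 ± 0.43 at 3 h.

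Trmt61a, Riox1, Lurap1l and C8h15orf39 were the other leading crossings upwards. Trmt61a, the catalytic subunit of a tRNA methyltransferase, was 12.3-fold higher at 24 h and 4.12-fold lower at 3 h (time difference log2 5.66 ± 0.35, adjusted p = 4.29e-16). Riox1, a nucleolar oxygenase, had 9.83, 9.94 and 9.83 in galactosamine rats at 24 h against 6.02, 5.97 and 6.04 in vehicle rats, and 4.84, 4.99 and 4.16 in galactosamine rats at 3 h against 6.4, 6.06 and 6.08 in vehicle rats. Each set of galactosamine rats was clear of its vehicle rats, on opposite sides. Crossing genes were chosen for called effects at both times, so such separation follows in part from that choice. Lurap1l was 12.6-fold higher at 24 h and 3.73-fold lower at 3 h. C8h15orf39 was higher at 24 h by log2 2.90 ± 0.23. At 3 h it was lower by at least 7.08-fold, since the signal of galactosamine rats (4.05, 4.33 and 4.54) did not exceed background.

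The crossings in the other direction were smaller in number. Serpina7, which encodes thyroxine-binding globulin, had 4.71, 6.24 and 5.01 in galactosamine rats at 24 h against 8.5, 8.56 and 8.51 in vehicle rats. The values at 3 h were 10.21, 9.95 and 10.54 in galactosamine rats against 7.57, 8.51 and 9.59 in vehicle rats. The deficit at 24 h was 9.21-fold and the excess at 3 h 3.19-fold, with vehicle rats at 3 h more spread than the others (time difference log2 -4.88 ± 0.71, adjusted p = 2.33e-07). Sult1c2, a sulfotransferase, was lower by log2 3.69 ± 0.22 at 24 h and higher by 0.75 ± 0.22 at 3 h. Elovl2, which elongates polyunsaturated fatty acids, had 6.57, 6.56 and 7.03 in galactosamine rats at 24 h against 10.33, 10.41 and 10.53 in vehicle rats. Its levels at 3 h were 10.98, 10.66 and 10.8 in galactosamine rats and 9.87, 10.08 and 10.55 in vehicle rats, an excess of log2 0.65 ± 0.25 (adjusted p = 0.0457).

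Lepr, the leptin receptor, was lower by log2 2.84 ± 0.32 at 24 h and higher by 1.11 ± 0.32 at 3 h. A second, dimmer probe set of Lepr gave a time difference of log2 0.04. A further pair of genes did not exceed background in galactosamine rats at 24 h. Tmem135, a peroxisomal and mitochondrial membrane protein, was at least 6.77-fold lower at 24 h and higher by log2 0.94 ± 0.18 at 3 h. Reps2, an adaptor of endocytosis, was at least 3.95-fold lower at 24 h and higher by log2 1.23 ± 0.24 at 3 h. In these 3 genes all galactosamine rats lay below all vehicle rats at 24 h and above all vehicle rats at 3 h.

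**Figure D2:**
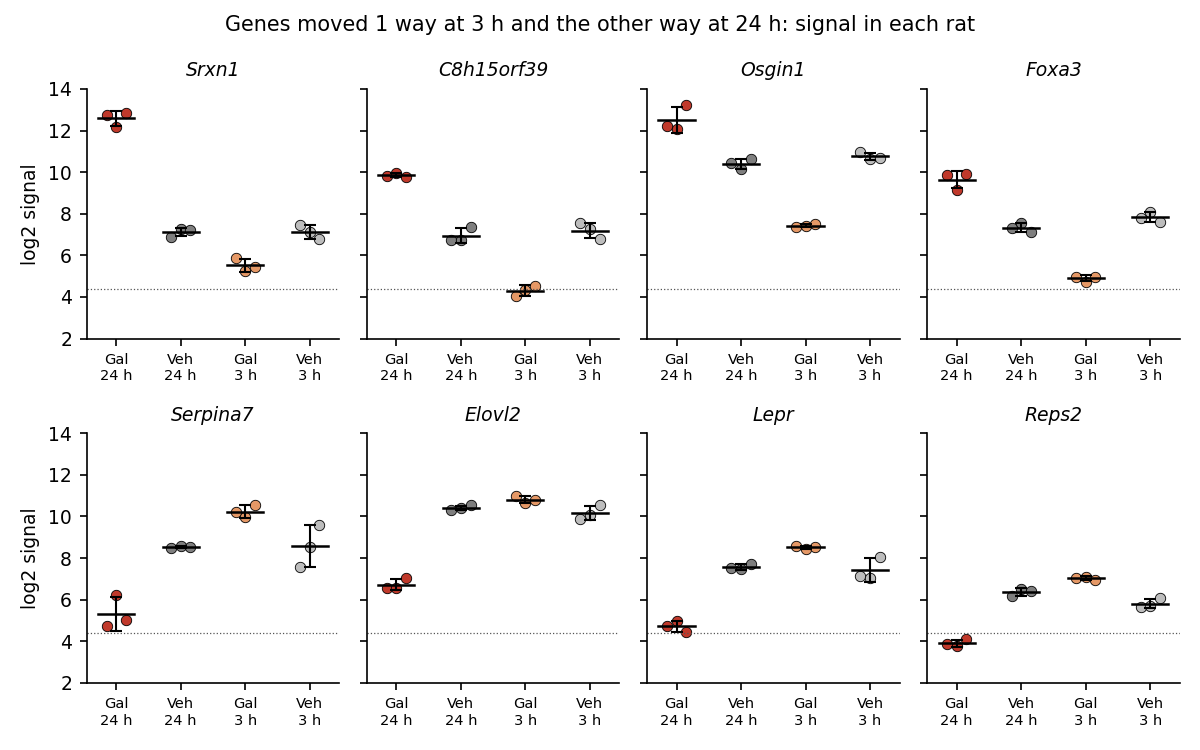
Log2 signal of 8 genes that crossed vehicle, 1 point per rat, in galactosamine (Gal) and vehicle (Veh) rats at 24 h and at 3 h, with horizontal lines for group means, bars for the SD (n = 3) and a dotted line at 4.37, the highest mean of the bacterial probe sets. In the upper row galactosamine rats lie above vehicle at 24 h and below it at 3 h, and in the lower row the sides are exchanged.

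Other leading rises were not called lower at 3 h. Pvr, an adhesion receptor that natural killer cells recognise, had 11.13, 11.88 and 11.61 in galactosamine rats at 24 h against 4.79, 4.8 and 5.23 in vehicle rats. Its values at 3 h were 4.6, 4.92 and 4.93 in galactosamine rats against 5.05, 4.71 and 4.93 in vehicle rats. The groups were clear of each other at 24 h by several units and overlapped at 3 h (time difference log2 6.68 ± 0.60, adjusted p = 3.49e-12). Rnd1, a GTPase that loosens the actin cytoskeleton, had 10.45, 11.26 and 11.13 in galactosamine rats at 24 h against 4.37, 4.81 and 4.85 in vehicle rats (time difference log2 6.63 ± 0.75), and did not pass at 3 h. Tnfrsf12a, the receptor of the cytokine TWEAK, was already higher at 3 h. It had 11.52, 11.4 and 12.32 in galactosamine rats at 24 h against 5.49, 5.76 and 5.62 in vehicle rats, and 6.67, 6.66 and 6.4 in galactosamine rats at 3 h against 6.09, 5.54 and 5.45 in vehicle rats. Its effects were log2 6.12 ± 0.32 at 24 h and 0.89 ± 0.32 at 3 h. Neurl3, a ubiquitin ligase, was 50.6-fold higher at 24 h and did not pass at 3 h. Mybl1, a transcription factor of the MYB family, was at least 30.1-fold higher at 24 h and did not exceed background in the other 3 groups.

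The list of cytoskeletal and injury-associated adhesion genes, which holds Pvr, Rnd1 and Tnfrsf12a, was mostly higher at 24 h. Of its 30 measured genes, 18 had a higher time difference, 1 a lower one and 11 were not called, with a median of 1.39 against -0.07 over all genes tested. At 24 h, 23 were higher than vehicle and 2 lower, and at 3 h, 7 were higher and 2 lower. Krt18, a keratin of hepatocytes and bile duct cells, rose to 13.18, 12.88 and 13.3 in galactosamine rats at 24 h, against 10.94, 11.34 and 10.97 in vehicle rats. Krt18 at 3 h was lower than vehicle by log2 0.73 ± 0.20. Tubulin genes, which encode the subunits of microtubules and have similar sequences that probe sets may not separate, differed in size. Of 12, 5 had a higher time difference and none a lower one (median 0.41). Tubb6 had 10.1, 10.08 and 10.23 in galactosamine rats at 24 h against 5.32, 5.28 and 5.28 in vehicle rats, and 5.78, 5.28 and 5.62 in galactosamine rats at 3 h against 5.55, 5.33 and 5.62 in vehicle rats. Tubb4b crossed, at log2 2.86 ± 0.23 at 24 h and -1.33 ± 0.23 at 3 h.

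p53 is a transcription factor that answers DNA damage and nucleolar stress by arresting the cell cycle or starting cell death. Of 18 of its target genes, 12 had a higher time difference and 4 a lower one, with a median of 1.48. Cdkn1a, an inhibitor of cyclin-dependent kinases, had 11.21, 10.33 and 10.72 in galactosamine rats at 24 h against 6.73, 6.75 and 7.18 in vehicle rats. Levels at 3 h were 7.44, 7.35 and 7.3 in galactosamine rats against 8.03, 7.65 and 7.12 in vehicle rats. The groups overlapped at 3 h and not at 24 h (time difference log2 4.11 ± 0.47, adjusted p = 1.6e-09). Phlda3, an inhibitor of AKT signalling, had a time difference of log2 4.27 ± 0.37. Mdm2, the ubiquitin ligase that degrades p53, crossed, with effects of log2 3.17 ± 0.23 at 24 h and -0.67 ± 0.23 at 3 h, and so did the nuclease gene Aen (log2 2.65 ± 0.20 at 24 h and -0.64 ± 0.20 at 3 h). The 4 members with a lower time difference were Tp53inp1, Ei24, Ddit4 and Perp.

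Genes of apoptosis and of death receptors were also higher in most cases. Of 27, 19 had a higher time difference and 2 a lower one (median 1.26), and 9 crossed to above vehicle at 24 h. Those that rose include genes that oppose cell death. Bcl2l1, which encodes the survival protein Bcl-xL, had 10.28, 10.29 and 10.63 in galactosamine rats at 24 h against 7.15, 7.51 and 7.4 in vehicle rats, and 6.8, 6.74 and 6.9 in galactosamine rats at 3 h against 7.69, 7.49 and 7.39 in vehicle rats. A second, dimmer probe set of Bcl2l1 gave a time difference of log2 -0.31. Mcl1, another survival protein of short life, was higher by log2 2.24 ± 0.24 at 24 h and lower by 1.33 ± 0.24 at 3 h. Bnip3, a mitochondrial protein of cell death and mitophagy, was lower by log2 2.42 ± 0.14 at 24 h (time difference -2.37 ± 0.20).

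ATF4 and CHOP are transcription factors that cells switch on when amino acids run short or proteins misfold. Of 23 genes of this response, 15 had a higher time difference and 2 a lower one (median 1.37), and 15 were higher than vehicle at 24 h against 1 at 3 h. Atf3, a stress transcription factor, had 9.78, 10.66 and 11.35 in galactosamine rats at 24 h against 4.55, 3.82 and 5.85 in vehicle rats. At 3 h it had 6.08, 5.76 and 5.4 in galactosamine rats against 3.92, 3.93 and 4.33 in vehicle rats, which did not exceed background there. Galactosamine rats lay above vehicle at both times, at log2 5.85 ± 0.62 at 24 h and by at least 2.60-fold at 3 h. Trib3, a pseudokinase that restrains ATF4, had 10.39, 10.21 and 10.98 in galactosamine rats at 24 h against 7.42, 7.56 and 7.37 in vehicle rats, and lay below vehicle at 3 h by log2 0.86 ± 0.31. Psat1, an enzyme of serine synthesis, was higher by log2 4.13 ± 0.33 at 24 h, and Asns, asparagine synthetase, by at least 5.76-fold.

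The letters to which ATF4 and C/EBP proteins bind are found in the promoters of both rising and falling members of this list. Promoter windows from RefSeq (build GRCr8), which run 250 bases before to 50 after the start of a gene, were found for 21 of the 23 genes and for 11700 of all genes tested. TGATGNAA, on either strand, was in 6 of the 21 (28.6%) and in 257 of the 11700 (2.2%). Of these 6, 4 are shown for the contrast in their time differences, each as a stretch of 100 bases read along the gene's own strand, with the motif in capitals. Counted from the start of the gene, the motif begins at -21 in Trib3, -30 in Slc7a1, -55 in Nupr1 and -143 in Fgf21, and the stretch shown for Fgf21 ends well before the start. TTACATCA and TTGCATCA are the motif read from the other strand.
Trib3, chr3:161275534-161275633, minus strand: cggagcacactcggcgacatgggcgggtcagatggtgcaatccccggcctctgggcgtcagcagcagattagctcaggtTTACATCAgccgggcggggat
Slc7a1, chr12:11664388-11664487, plus strand: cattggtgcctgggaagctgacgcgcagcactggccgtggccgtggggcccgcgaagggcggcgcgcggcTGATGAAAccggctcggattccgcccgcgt
Nupr1, chr1:190645903-190646002, minus strand: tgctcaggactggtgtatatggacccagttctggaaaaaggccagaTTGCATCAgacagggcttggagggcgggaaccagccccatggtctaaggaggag
Fgf21, chr1:105221466-105221565, minus strand: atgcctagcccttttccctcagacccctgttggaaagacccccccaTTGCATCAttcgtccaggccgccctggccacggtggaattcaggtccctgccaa

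These 4 genes did not share a direction. Trib3 rose (time difference log2 3.94 ± 0.43), as did Slc7a1, a transporter of arginine and lysine, which had 7.81, 8.59 and 7.32 in galactosamine rats at 24 h against 5.94, 5.82 and 5.87 in vehicle rats (time difference log2 1.89 ± 0.23). Nupr1, a small chromatin protein of stressed cells, was not called (log2 -0.72 ± 0.46, adjusted p = 0.198). Fgf21, a hormone that the liver releases in fasting and stress, had 5.68, 4.67 and 4.88 in galactosamine rats at 24 h against 6.73, 7.2 and 7.48 in vehicle rats, and its time difference was log2 -2.47 ± 0.51. The motif was thus present in genes that rose, fell and were not called, and its presence is a description of these letters only.

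Chaperones of the endoplasmic reticulum were more often lower. Of 24 genes, 2 had a higher time difference (8.33%) and 9 a lower one (37.5%), against 27.6% and 24.3% of all genes (median -0.32). Pdia4, a protein disulfide isomerase, had 8.73, 9.74 and 8.78 in galactosamine rats at 24 h against 10.83, 11.17 and 10.99 in vehicle rats, and did not pass at 3 h. Ero1b, an oxidase of secreted proteins in that compartment, was lower by log2 1.62 ± 0.15 at 24 h. Edem1, which marks misfolded glycoproteins for degradation, was lower by log2 1.89 ± 0.30. Xbp1, a transcription factor of the unfolded protein response, did not pass at 24 h (log2 0.36 ± 0.24) and was lower at 3 h (log2 -1.57 ± 0.24), which gave it a higher time difference of 1.93 ± 0.34. Among 16 cytosolic heat shock genes, 4 had a higher time difference (25%) and 2 a lower one (12.5%), against 27.6% and 24.3% of all genes. The cochaperone gene Bag3 crossed, at log2 0.63 ± 0.23 at 24 h and -1.86 ± 0.23 at 3 h, whereas the small heat shock gene Hspb1 was lower by 2.76 ± 0.46 at 24 h.

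NRF2, encoded by Nfe2l2, is the transcription factor that raises antioxidant enzymes. Nfe2l2 itself had 12.02, 11.97 and 11.65 in galactosamine rats at 24 h against 8.91, 9.2 and 9.29 in vehicle rats, and 7.7, 7.53 and 7.63 in galactosamine rats at 3 h against 9.37, 9.15 and 9.08 in vehicle rats. All galactosamine rats lay above all vehicle rats at 24 h and below all of them at 3 h (time difference log2 4.32 ± 0.25, adjusted p = 6.85e-17). Of 21 genes of the NRF2 list, which includes Srxn1 and Osgin1, 13 had a higher time difference and 1 a lower one (median 0.82), and at 24 h 15 were above vehicle. Abcc4, an export pump, was higher by log2 1.45 ± 0.25 at 24 h and did not exceed background in galactosamine rats at 3 h. TGACNNNGC, the core of the element to which NRF2 binds, on either strand, was in 5 of 18 promoter windows of the list (27.8%) and in 1681 of 11700 of all genes (14.4%).

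Immediate early genes, which growth factors and stress induce without new protein synthesis, were more often above vehicle at 24 h. Of 27, 17 had a higher time difference and 1 a lower one (median 1.46), and 17 were above vehicle at 24 h against 4 at 3 h. Dusp5, a phosphatase that shuts off ERK, had 10.65, 11.47 and 10.96 in galactosamine rats at 24 h against 6.73, 6.8 and 6.93 in vehicle rats, and 5.86, 5.59 and 6.24 in galactosamine rats at 3 h against 7.08, 6.62 and 6.82 in vehicle rats. Dusp5 did not pass at 3 h, although its rats did not overlap there (log2 -0.94 ± 0.42). Myc, a transcription factor of growth and of ribosome production, had 8.95, 10.4 and 11.2 in galactosamine rats at 24 h against 8.34, 7.98 and 7.98 in vehicle rats. Myc at 3 h had 6.12, 6 and 6.22 in galactosamine rats against 7.13, 7.79 and 8.61 in vehicle rats, so it crossed too. Fos was the only member with a lower called time difference (log2 -3.82 ± 1.38, adjusted p = 0.0193). Vehicle rats at 3 h had 2.8, 3.11 and 8.71 for Fos, a spread wider than the change, and the call was lost without rat6 (log2 -2.61), rat1 (-2.78), rat2 (-2.94) or rat22 (-3.38). It was also lost with only the compared groups fitted (adjusted p = 0.121) and when galactosamine rats were compared without vehicle (log2 -1.69).

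Ribosome biogenesis moved without exception among its measured members. These genes encode the nucleolar factors that transcribe, cut and modify ribosomal RNA and assemble the subunits. All 47 measured members had a higher called time difference (median 1.90, range 0.59 to 4.39), against 27.6% of all genes tested. All 47 were above vehicle at 24 h, and at 3 h 4 were above it and 16 below it, so that 16 members crossed. Rrs1, a factor of the large subunit, had 10.13, 10.64 and 10.15 in galactosamine rats at 24 h against 7.85, 7.26 and 7.56 in vehicle rats, and 5.98, 5.75 and 5.97 in galactosamine rats at 3 h against 7.52, 7.71 and 7.4 in vehicle rats. Nop58, a core protein of the particles that methylate ribosomal RNA, had 11.34, 11.44 and 11.66 in galactosamine rats at 24 h against 7.92, 8.15 and 7.96 in vehicle rats (time difference log2 4.10 ± 0.28). Its level at 3 h was 7.61, 7.52 and 7.16 in galactosamine rats and 8.11, 8.03 and 8.03 in vehicle rats. Nolc1, a nucleolar chaperone of these particles, had a time difference of log2 3.85 ± 0.27, although a second and dimmer probe set of the gene gave -0.46. Rrp1b, a nucleolar protein, had log2 3.53 ± 0.24.

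The hexamer CACGTG, the E-box to which MYC and related factors bind, was searched for in the promoters of this list. It lay, on either strand, in 16 of 43 windows (37.2%) and in 1046 of 11700 windows of all genes (8.94%). Ddx18 and Gnl3 are shown because both hold the E-box close to the start, again as 100 upstream bases along the gene's strand (RefSeq, GRCr8) with the E-box in capitals.
Ddx18, chr13:35295973-35296072, minus strand: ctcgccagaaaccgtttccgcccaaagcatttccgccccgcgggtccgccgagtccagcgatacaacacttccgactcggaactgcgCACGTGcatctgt
Gnl3, chr16:6219783-6219882, minus strand: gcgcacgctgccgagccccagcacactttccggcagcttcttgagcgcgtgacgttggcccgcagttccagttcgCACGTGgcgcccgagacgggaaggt

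Ddx18, an RNA helicase of the nucleolus, had 9.44, 9.5 and 9.69 in galactosamine rats at 24 h against 7.06, 7.34 and 7.25 in vehicle rats, and did not pass at 3 h. Gnl3, the nucleolar GTPase nucleostemin, had 10.18, 10.66 and 10.69 in galactosamine rats at 24 h against 8.68, 8.88 and 8.89 in vehicle rats. Gnl3 at 3 h lay below vehicle, at 8.65, 8.55 and 8.36 in galactosamine rats against 9.24, 9.18 and 8.96 in vehicle rats. Both were above vehicle in every rat at 24 h, and Gnl3 below it in every rat at 3 h. Whether MYC acts at these sites was not tested.

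The genes of the ribosome itself moved by much smaller amounts. Of 29 cytosolic ribosomal protein genes, 21 had a higher time difference and 1 a lower one, with a median of 0.38. Under cyclic loess normalization 27 were higher and the median was 0.73. Rps3 had 12.25, 12.25 and 12.28 in galactosamine rats at 24 h against 11.43, 11.65 and 11.46 in vehicle rats, and 11.59, 11.63 and 11.62 in galactosamine rats at 3 h against 11.51, 11.47 and 11.57 in vehicle rats. Aminoacyl-tRNA synthetases, which load tRNAs with their amino acids, lay between the 2 lists. Of 19, 14 had a higher time difference and none a lower one (median 0.97). Cars1, for cysteine, was higher by log2 2.18 ± 0.13 at 24 h and lower by 0.77 ± 0.13 at 3 h, and Rars1 and Sars1 crossed in the same way. Of 30 proteasome genes, 7 were higher and 3 lower (median 0.10, and 0.31 under cyclic loess normalization), led by Psmd7 at log2 1.06 ± 0.14. Over all genes the shares were 27.6% and 24.3%.

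Pyrimidine and galactose metabolism, the pathway on which galactosamine acts, moved in both directions. Of 24 genes, 9 had a higher time difference (37.5%) and 8 a lower one (33.3%), against 27.6% and 24.3% of all genes (median 0.28). Ctps1, which makes CTP from UTP, had 8.21, 8.77 and 8.7 in galactosamine rats at 24 h against 5.12, 5.17 and 4.79 in vehicle rats, and did not pass at 3 h. A second, dimmer probe set of Ctps1 gave a time difference of log2 -0.66. Dpyd and Dpys act in pyrimidine breakdown and were lower. Dpyd, which takes the first step, had 6.57, 7.45 and 6.64 in galactosamine rats at 24 h against 10.07, 10.03 and 9.79 in vehicle rats, and Dpys, which takes the second, was lower by log2 2.49 ± 0.12. Ugp2, which makes UDP-glucose, had 9.76, 9.01 and 9.66 in galactosamine rats at 24 h against 11.48, 11.41 and 11.51 in vehicle rats. None of Dpyd, Dpys and Ugp2 passed at 3 h.

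Cell cycle genes were higher at 24 h in part. Of 35, 13 had a higher time difference (37.1%) and none a lower one, against 27.6% and 24.3% of all genes (median 0.63). At 3 h limma called none in either direction, nor did any reach an unadjusted p under 0.05. In all 4 groups 10 of the 35 did not exceed background, which limits what could be called. Cdt1, which licenses DNA replication, had 7.13, 7.69 and 6.44 in galactosamine rats at 24 h and did not exceed background in the other groups, so it was at least 6.56-fold higher. Mcm2, a subunit of the replicative helicase, had 7.33, 7.13 and 7.04 in galactosamine rats at 24 h against 5.78, 5.89 and 5.92 in vehicle rats (log2 1.31 ± 0.23), and did not pass at 3 h. The mitotic kinase gene Aurka was at least 3.17-fold higher.

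**Figure D3:**
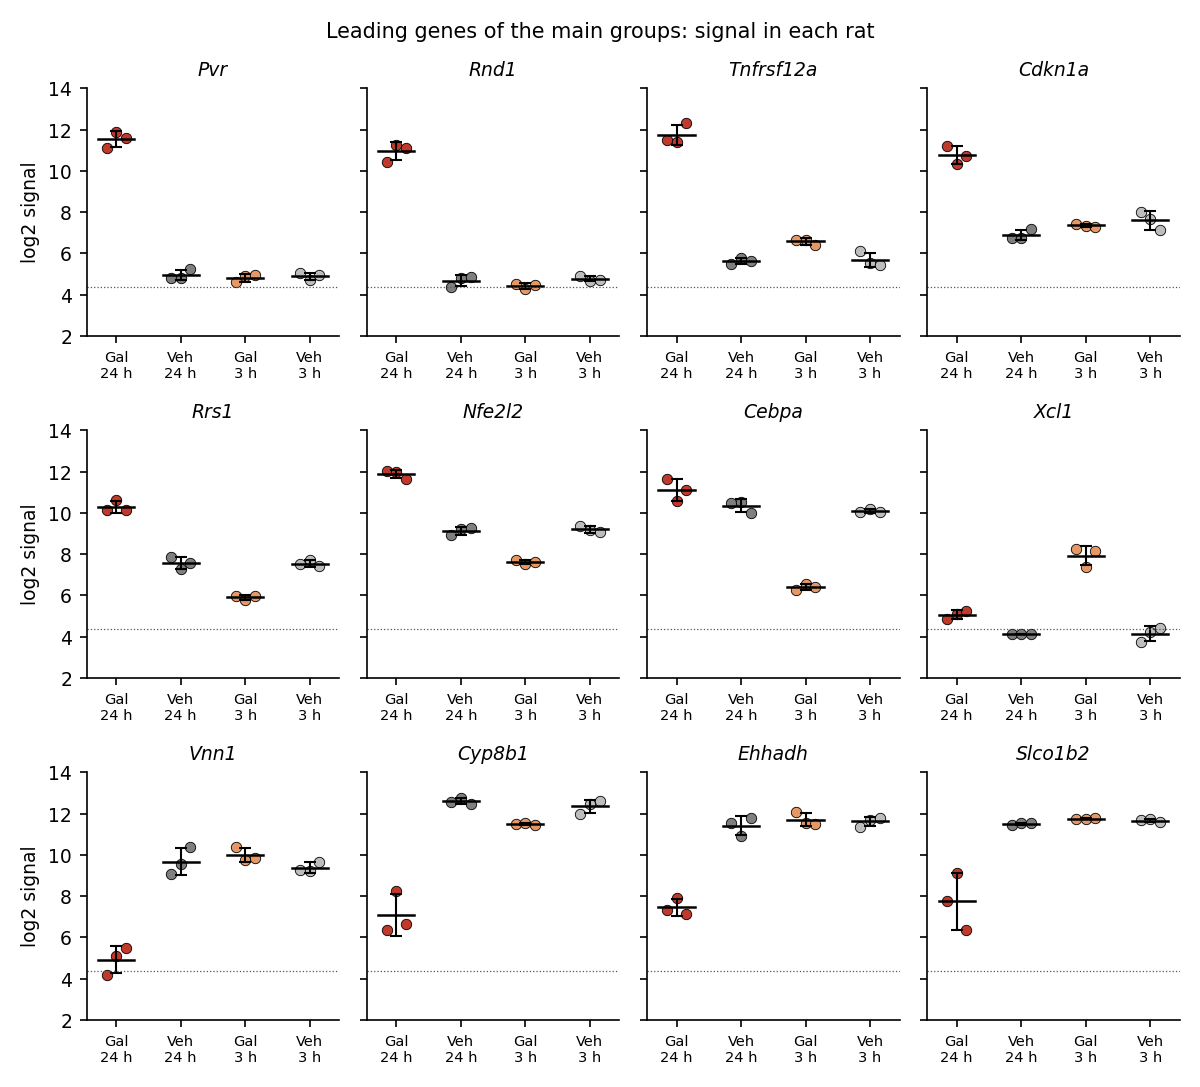
Log2 signal of 12 leading genes of the groups described, 1 point per rat, in galactosamine (Gal) and vehicle (Veh) rats at 24 h and at 3 h, with horizontal lines for group means, bars for the SD (n = 3) and a dotted line at 4.37, the highest mean of the bacterial probe sets. Cebpa is lowest in galactosamine rats at 3 h, Xcl1 is highest there, and the 4 genes of the bottom row are lowest in galactosamine rats at 24 h.

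Transcription factors of hepatocyte identity were lower at both times in part. At 24 h, 4 of 21 were above vehicle and 11 below, at 3 h none was above and 11 were below, and the time difference was higher for 7 and lower for 8 (median -0.08). Cebpa, which drives hepatocyte and metabolic genes, had 11.64, 10.6 and 11.1 in galactosamine rats at 24 h against 10.5, 10.55 and 10.01 in vehicle rats. Cebpa at 3 h had 6.27, 6.56 and 6.41 in galactosamine rats against 10.05, 10.19 and 10.03 in vehicle rats, which is 12.8-fold lower. It was above vehicle at 24 h by log2 0.76 ± 0.18 (adjusted p = 0.000402), and rats did not overlap at either time. Foxa3, a forkhead factor that opens liver chromatin, had 9.86, 9.16 and 9.92 in galactosamine rats at 24 h against 7.31, 7.56 and 7.14 in vehicle rats, and 4.98, 4.74 and 4.98 in galactosamine rats at 3 h against 7.82, 8.07 and 7.61 in vehicle rats. Hnf4a, a nuclear receptor that defines hepatocytes, had 12.89, 12.12 and 12.78 in galactosamine rats at 24 h against 11.43, 11.66 and 11.59 in vehicle rats, and 10.13, 10.03 and 9.85 in galactosamine rats at 3 h against 11.67, 11.59 and 11.57 in vehicle rats. Cebpb, a C/EBP factor of the acute phase, was the fourth to cross, at log2 1.54 ± 0.20 at 24 h and -1.65 ± 0.20 at 3 h.

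The nuclear receptors Nr0b2 and Nr1i3 were lower at 24 h. Nr0b2 (SHP), a repressor of bile acid synthesis, had 5.11, 4.54 and 5.1 in galactosamine rats at 24 h against 8.81, 8.55 and 9.86 in vehicle rats, and did not pass at 3 h. In vehicle rats themselves Nr0b2 was higher at 24 h than at 3 h by log2 1.91 ± 0.35. Nr1i3 (CAR), the sensor of foreign compounds, had 5.09, 4.41 and 5.83 in galactosamine rats at 24 h against 7.83, 7.35 and 8.45 in vehicle rats, and 8.2, 8.05 and 7.8 in galactosamine rats at 3 h against 8.11, 7.35 and 7.04 in vehicle rats. It was lower in every galactosamine rat at 24 h and overlapped with vehicle at 3 h.

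Bile acid genes were mostly lower at 24 h. Of 22 genes of bile acid synthesis and transport, 18 had a lower time difference and 1 a higher one (median -1.95), against 24.3% lower over all genes. At 24 h, 20 were below vehicle, and at 3 h, 5. Cyp8b1, which sets the share of cholic acid, had 6.36, 8.26 and 6.63 in galactosamine rats at 24 h against 12.58, 12.75 and 12.46 in vehicle rats, and 11.52, 11.55 and 11.44 in galactosamine rats at 3 h against 11.98, 12.46 and 12.61 in vehicle rats. All galactosamine rats were lower than vehicle at both times, but the 3 h effect did not pass (log2 -0.85 ± 0.55). Slco1b2, an uptake transporter of bile acids and drugs, had 7.77, 9.1 and 6.35 in galactosamine rats at 24 h against 11.43, 11.53 and 11.55 in vehicle rats. Its values at 3 h lay between 11.58 and 11.81 in both groups. Slco1a1, a related transporter, crossed, at log2 -2.73 ± 0.21 at 24 h and 0.82 ± 0.21 at 3 h. Cyp7a1, the rate-limiting enzyme, did not follow this course, as the values of this gene, singled out after they were seen, show. It was 5.88, 6.54 and 3.59 in galactosamine rats at 24 h against 10.06, 10.79 and 9.5 in vehicle rats, and already 5.18, 5.53 and 5.3 in galactosamine rats at 3 h against 8.18, 9.86 and 9.63 in vehicle rats (time difference log2 -0.89 ± 0.98, adjusted p = 0.47).

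Oxidation of fatty acids, which feeds the liver and its ketone bodies, fell at 24 h. All 27 measured genes were below vehicle at 24 h, against 28.5% of all genes, while at 3 h 3 were above and 3 below. The time difference was lower for 23 and higher for none (median -1.99). Ehhadh, an enzyme of peroxisomal oxidation, had 7.32, 7.92 and 7.12 in galactosamine rats at 24 h against 11.56, 10.9 and 11.81 in vehicle rats, and 12.09, 11.55 and 11.5 in galactosamine rats at 3 h against 11.36, 11.7 and 11.81 in vehicle rats. Acsl1, which couples fatty acids to coenzyme A, had 9.09, 8.76 and 8.96 in galactosamine rats at 24 h against 12.5, 12.41 and 12.5 in vehicle rats. Bdh1, of ketone body metabolism, had a time difference of log2 -3.69 ± 0.25. Crot, which links fatty acids to carnitine in the peroxisome, crossed, at log2 -2.73 ± 0.28 at 24 h and 0.85 ± 0.28 at 3 h.

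Vnn1, Bbox1, Hao2 and Hacl1 were among the largest single falls. Vnn1, which releases pantothenate, the precursor of coenzyme A, had 4.19, 5.08 and 5.5 in galactosamine rats at 24 h against 9.09, 9.55 and 10.38 in vehicle rats, and 10.37, 9.73 and 9.83 in galactosamine rats at 3 h against 9.26, 9.23 and 9.67 in vehicle rats. Its time difference was log2 -5.34 ± 0.58 (adjusted p = 3.85e-10). Bbox1, the last enzyme of carnitine synthesis, had 5.16, 5.62 and 4.86 in galactosamine rats at 24 h against 10.06, 10 and 9.39 in vehicle rats, a 24.3-fold deficit. Hao2 and Hacl1, both peroxisomal enzymes of hydroxy acid breakdown, were 17.6-fold and 22.5-fold lower at 24 h, and neither passed at 3 h. Ptprd, a receptor phosphatase, had a time difference of log2 -4.53 ± 0.28. Gk, glycerol kinase, was lower by log2 3.83 ± 0.14 at 24 h, and the acetyltransferase gene Nat8 was at least 15.4-fold lower, with vehicle rats themselves higher at 24 h than at 3 h by log2 1.36 ± 0.35.

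Mitochondrial respiratory chain genes were also lower. Of 33, 23 had a lower time difference and none a higher one (median -0.62). Under cyclic loess normalization 17 were lower and 3 higher (median -0.41). Ndufs1, the largest subunit of complex I, had 8.26, 8.05 and 8.46 in galactosamine rats at 24 h against 9.7, 9.79 and 9.44 in vehicle rats, and did not pass at 3 h. Most genes of the urea cycle and of amino acid breakdown fell. Of 40 genes, 33 had a lower time difference and 2 a higher one (median -1.46), and 37 were below vehicle at 24 h. Bhmt, which remakes methionine from betaine, had 7.6, 7.66 and 8.77 in galactosamine rats at 24 h against 11.97, 11.73 and 10.71 in vehicle rats. Kynu, of tryptophan breakdown, was lower by log2 3.78 ± 0.20, and Oat, ornithine aminotransferase, by log2 2.96 ± 0.26. Neither passed at 3 h.

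Cytochrome P450 genes, which oxidise drugs, steroids and fatty acids and whose near-identical members probe sets may not separate, fell in part. Of 37, 23 had a lower time difference and 1 a higher one (median -0.90). Cyp2j4 had 6.81, 7.93 and 6.86 in galactosamine rats at 24 h against 10.11, 9.88 and 10.19 in vehicle rats, and did not pass at 3 h. Cyp4a1, which oxidises the far end of fatty acids, was lower by log2 2.54 ± 0.14. Cyp3a18 was lower by log2 2.45 ± 0.35. In glucose metabolism, 9 of 20 genes were lower and 2 higher (median -0.22). Gys2, liver glycogen synthase, had 6.14, 5.91 and 6.51 in galactosamine rats at 24 h against 10.9, 10.35 and 10.86 in vehicle rats, and Fbp1, of glucose synthesis, was lower by log2 2.11 ± 0.14.

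Lipid synthesis was covered by a pair of lists. Of 18 genes of cholesterol synthesis, 9 had a lower time difference and none a higher one (median -0.73). Nsdhl had 7.7, 7.82 and 7.55 in galactosamine rats at 24 h against 10.16, 9.67 and 10.28 in vehicle rats. Of 21 genes of fatty acid synthesis, 6 were lower (28.6%) and 3 higher (14.3%), against 24.3% and 27.6% of all genes (median -0.39). Fads1, a desaturase, crossed, at log2 -1.84 ± 0.32 at 24 h and 0.86 ± 0.32 at 3 h. Lpin2, a phosphatase of lipid synthesis, crossed the other way, at log2 1.37 ± 0.30 at 24 h and -1.20 ± 0.30 at 3 h.

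Genes of secreted plasma proteins were called in smaller numbers. Of 33, 11 had a lower time difference (33.3%) and 3 a higher one (9.09%), against 24.3% and 27.6% of all genes (median -0.20). Under cyclic loess normalization this balance turned, with 7 lower and 13 higher (median 0.20). Albumin had a time difference of 0.01 ± 0.07 (adjusted p = 0.939). Its signal lay near the top of the scale in all groups, where a change may not show. F5, clotting factor V, had 8.87, 9.02 and 8.92 in galactosamine rats at 24 h against 11.09, 11.08 and 11.19 in vehicle rats, and 11.15, 11.17 and 11.06 in galactosamine rats at 3 h against 11.18, 11.05 and 11.08 in vehicle rats. Igfals, the partner of IGF1 in plasma, was lower at both times, by log2 3.24 ± 0.30 at 24 h and 0.82 ± 0.30 at 3 h. In the growth hormone and IGF list, 3 of 18 were higher (16.7%) and 5 lower (27.8%), against 27.6% and 24.3% of all genes. Cish, which damps growth hormone signalling, crossed, at log2 2.54 ± 0.36 at 24 h and -1.91 ± 0.36 at 3 h. Of 23 acute phase genes, 5 were higher (21.7%) and 1 lower (4.35%), against 27.6% and 24.3% of all genes. Under cyclic loess normalization 10 were higher and none lower. Stat3 had a time difference of log2 1.5 ± 0.36.

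**Figure D4:**
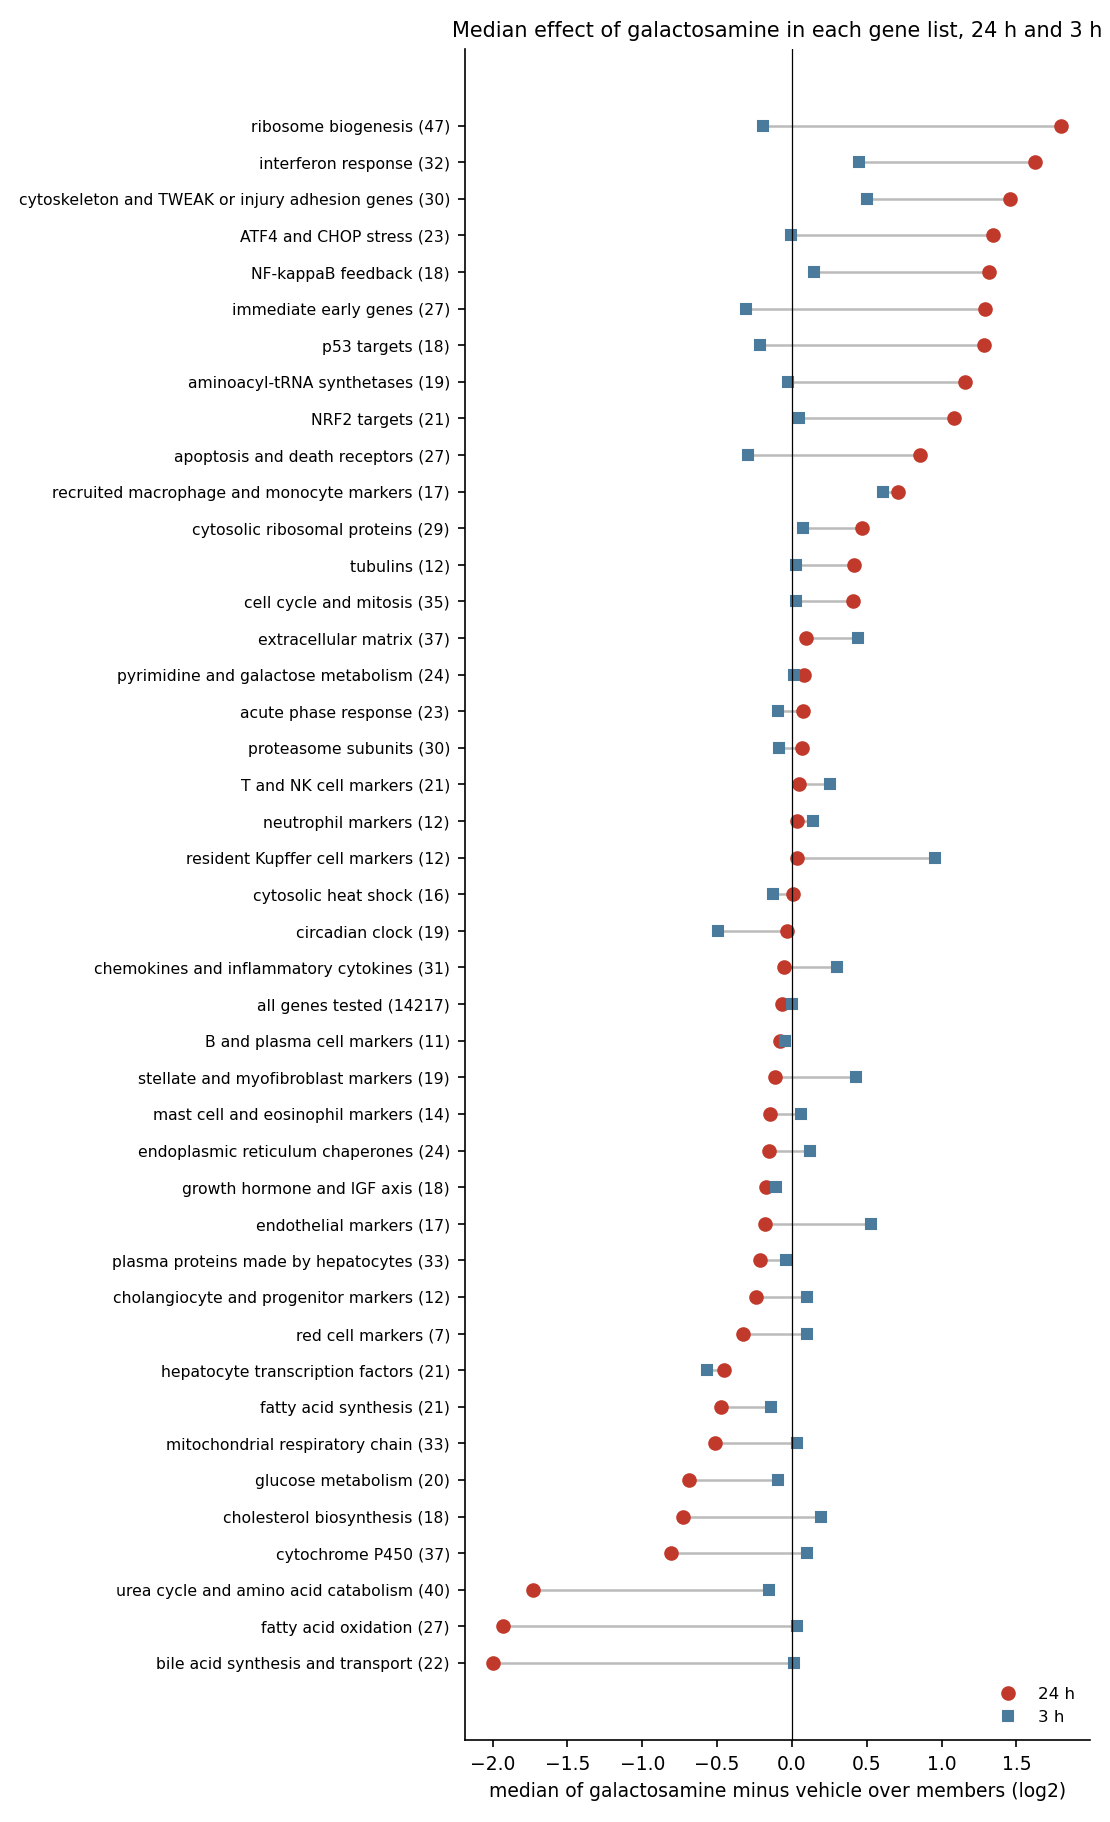
Median galactosamine minus vehicle difference (log2) over the measured members of each gene list at 24 h (circles) and at 3 h (squares), with the number of members in brackets and the lists sorted by the value at 24 h. Ribosome biogenesis is highest at 24 h (1.80, against -0.20 at 3 h) and bile acid synthesis and transport lowest (-2.0, against 0.01 at 3 h), while resident Kupffer cell markers are highest at 3 h (0.95, against 0.04 at 24 h).

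The vehicle groups themselves differed in 169 genes (1.19%), with 141 higher at 24 h (0.992%) and 28 lower (0.197%), a split that was 70.2% higher under cyclic loess normalization and 83.4% as deposited. This count was 32 to 279 when 1 rat was left out, lowest without rat1 and highest without rat3. The clock gene Npas2, singled out after its values were seen, was at 3.19, 3.71 and 3.94 in vehicle rats at 24 h and 6.46, 6.54 and 5.84 in vehicle rats at 3 h. Bmal1, its partner in the clock, was lower in vehicle rats at 24 h by log2 1.99 ± 0.33. The effects on clock genes are set against vehicle levels that differ between the times. Of 19, 8 had a higher time difference (42.1%) and 1 a lower one (5.26%), against 27.6% and 24.3% of all genes (median 0.42). Hlf, a clock output factor, did not exceed background in galactosamine rats at 24 h (4.09, 3.88 and 4.89) and was at least 14.5-fold lower than in vehicle rats (8.37, 7.98 and 8.34). Nr1d1 (REV-ERBα) did not pass at 24 h and was lower at 3 h by log2 1.67 ± 0.30. Cry2 had 8.17, 7.95 and 8.51 in galactosamine rats at 24 h against 7.82, 7.86 and 7.68 in vehicle rats, and was lower by log2 1.42 ± 0.17 at 3 h, but a second probe set gave -0.41 for the time difference.

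Chemokines and inflammatory cytokines, which call immune cells into the tissue, were more often above vehicle at 3 h. Of 31, 11 were above vehicle at 24 h and 16 at 3 h, and the time difference was lower for 14 and higher for 2 (median -0.35). Xcl1, which attracts lymphocytes and dendritic cells, had 4.86, 5.09 and 5.26 in galactosamine rats at 24 h, and 8.26, 7.39 and 8.15 in galactosamine rats at 3 h, with vehicle rats not above background at either time. It was at least 1.63-fold higher at 24 h and at least 11.8-fold higher at 3 h. Ccl5 crossed, at log2 -1.0 ± 0.23 at 24 h and 0.65 ± 0.23 at 3 h. Not all members receded. Ccl2, the main attractant of monocytes and singled out after its values were seen, had 5.96, 7.09 and 6.97 in galactosamine rats at 24 h and 7.4, 5.95 and 7.17 in galactosamine rats at 3 h, with vehicle rats below background at both times. Cxcl11 crossed upwards, at log2 0.57 ± 0.24 at 24 h and -1.85 ± 0.24 at 3 h. Cxcl12, which the normal liver makes, had 8.85, 8.86 and 8.21 in galactosamine rats at 24 h against 11.43, 11.49 and 11.32 in vehicle rats, and did not pass at 3 h.

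Genes induced by interferon and by NF-kappaB were more often above vehicle at 24 h. Of 32 interferon genes, 22 had a higher time difference and 1 a lower one (median 1.07), and 27 were above vehicle at 24 h against 10 at 3 h. Rsad2 (viperin), an antiviral enzyme, had 10.01, 9.26 and 9.69 in galactosamine rats at 24 h against 6.04, 5.83 and 5.84 in vehicle rats, and did not pass at 3 h. Isg15, a ubiquitin-like protein, had a time difference of log2 2.84 ± 0.46. Gbp2, a GTPase of cell defence, exceeded background in galactosamine rats and not in vehicle rats, by at least 10.8-fold at 24 h and at least 2.88-fold at 3 h. Of 18 NF-kappaB feedback genes, 11 were higher and 1 lower (median 1.23). Bcl3, a partner of NF-kappaB, had 9.52, 9.31 and 10.23 in galactosamine rats at 24 h against 6.62, 6.48 and 6.07 in vehicle rats, and was lower at 3 h by log2 1.33 ± 0.31. Icam1, an adhesion molecule for leukocytes, had 9.86, 9.24 and 11.03 in galactosamine rats at 24 h against 7.04, 7 and 7.23 in vehicle rats. Tnfaip2 had a time difference of log2 2.79 ± 0.36, with -0.51 from a second, dimmer probe set.

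Markers of the other cells of the liver moved too. Of 12 resident Kupffer cell markers, 1 was above vehicle at 24 h and 10 at 3 h, and 6 had a lower time difference (median -0.64). Their summed signal was 11.71 to 12.04 in galactosamine rats at 24 h against 11.83 to 11.87 in vehicle rats, and 12.63 to 12.73 in galactosamine rats at 3 h against 11.58 to 12.26 in vehicle rats. Cd163, a haemoglobin scavenger, had 7.21, 7.78 and 7.42 in galactosamine rats at 24 h against 7.42, 7.1 and 7.24 in vehicle rats, and 8.56, 8.63 and 8.27 in galactosamine rats at 3 h against 7.06, 6.52 and 7.44 in vehicle rats. Adgre1 (F4/80) and Mrc1 (CD206) were also above vehicle at 3 h and did not pass at 24 h, with time differences of log2 -1.94 ± 0.44 and -1.41 ± 0.22.

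Markers of recruited macrophages and monocytes, in contrast, were above vehicle in 11 of 17 genes at each time, and 10 were above it at both. The time difference was higher for 6 and lower for 2, with a median of 0.05. The summed signal of the 17 was 13.3 to 13.52 in galactosamine rats at 24 h against 11.59 to 11.64 in vehicle rats, and 12.37 to 12.47 in galactosamine rats at 3 h against 11.42 to 11.89 in vehicle rats. The brightest members weigh most in this sum. Gpnmb, of scavenging macrophages, had 10.63, 10.98 and 10.54 in galactosamine rats at 24 h against 7.26, 6.72 and 6.85 in vehicle rats, and 7.93, 8.1 and 7.98 in galactosamine rats at 3 h against 6.77, 6.21 and 7.43 in vehicle rats. Lgals3 (galectin 3) and Lyz2 (lysozyme) had time differences of log2 2.59 ± 0.50 and 2.41 ± 0.36. Cd14, the co-receptor for bacterial lipopolysaccharide, was lower by log2 1.44 ± 0.23 at 24 h.

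Endothelial markers were likewise above vehicle mainly at 3 h. Of 17, 3 were above and 7 below vehicle at 24 h, and 12 were above it at 3 h, with 12 lower time differences (median -0.91). Ptprb, an endothelial phosphatase, had 7.97, 8.56 and 8.05 in galactosamine rats at 24 h against 8.95, 8.73 and 9.11 in vehicle rats, and 10.26, 10.31 and 10.12 in galactosamine rats at 3 h against 9.13, 8.98 and 9.23 in vehicle rats. The scavenger receptor genes Stab1 and Stab2 crossed in the same direction. The summed signal of the endothelial markers was 11.71 to 12.13 in galactosamine rats at 24 h against 11.94 to 12.13 in vehicle rats, and 12.81 to 12.85 in galactosamine rats at 3 h against 11.85 to 12.24 in vehicle rats. Of 19 stellate cell and myofibroblast markers, 7 had a lower time difference and 1 a higher one (median -0.78). Lrat, which stores retinol in stellate cells, crossed, at log2 -0.69 ± 0.25 at 24 h and 1.41 ± 0.25 at 3 h. The summed signal of the stellate markers was 11.47 to 11.89 in galactosamine rats at 24 h against 11.51 to 12.08 in vehicle rats, and 12.38 to 12.58 in galactosamine rats at 3 h against 11.58 to 12.13 in vehicle rats. Of 37 matrix genes, 7 were higher (18.9%) and 5 lower (13.5%), against 27.6% and 24.3% of all genes. Timp1, an inhibitor of matrix proteases, was higher by log2 2.54 ± 0.36 at 24 h.

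T and NK cell markers were above vehicle at 3 h in part. Of 21, 1 was above vehicle and 3 below it at 24 h, and 6 were above it at 3 h. Of the 21, 6 (28.6%, against 24.3% of all genes) had a lower time difference, Xcl1 and Ccl5 among them, and none a higher one. Their summed signal was 9.13 to 9.19 in galactosamine rats at 24 h against 9.3 to 9.38 in vehicle rats, and 9.83 to 10.09 in galactosamine rats at 3 h against 9.2 to 9.39 in vehicle rats. Of the 21, 7 did not exceed background in any group, Cd3d and Cd8a among them. Of 12 neutrophil markers, 2 were above vehicle and 1 below it at 24 h, and none was called at 3 h. Of the 12, 8 did not exceed background in any group, Cxcr2, Mmp8 and S100a8 among them. The time difference was lower for 2 (Cxcr2 and Mmp8) and higher for none. Under cyclic loess normalization neither Cxcr2 (adjusted p = 0.0532) nor Mmp8 was called and S100a8 was called higher. The summed neutrophil signal was 8.2 to 10.43 in galactosamine rats at 24 h against 7.58 to 8 in vehicle rats, and 7.82 to 8.2 in galactosamine rats at 3 h against 7.73 to 7.88 in vehicle rats. Lcn2, which is also an acute phase gene, had 7.59, 6.76 and 10.24 in galactosamine rats at 24 h against 6.16, 5.31 and 6.84 in vehicle rats. Its time difference was not called. The 10.24, in rat24, is most of the highest sum of 10.43. The 6.76, in rat23, is a minor part even of the lowest sum of 8.2. Of 11 B and plasma cell markers 1 was higher and 1 lower, and of 12 cholangiocyte markers 1 was higher and 2 lower. Of 14 mast cell and eosinophil markers, 9 did not exceed background in any group, which limits what could be called. For the time difference, none of the 14 was called in either direction by limma or had an unadjusted p under 0.05. With only the compared groups fitted 1 of them, Cpa3, was lower (log2 -0.73). With array weights 3 were lower, without vehicle 7, and without rat6 or without rat18 1. Of 7 red cell markers 1 was lower. Jchain, of plasma cells, was higher at 3 h by log2 1.82 ± 0.29 and did not pass at 24 h. The summed signal of B and plasma cell markers was 11.16 to 11.95 in galactosamine rats at 24 h against 10.81 to 11.41 in vehicle rats, and 9.81 to 10.2 in galactosamine rats at 3 h against 10.7 to 11.44 in vehicle rats. Most of this sum is Xbp1, the member called higher, which hepatocytes also express, while Jchain is the member called lower. That of cholangiocyte markers was 9.76 to 10.78 in galactosamine rats at 24 h against 10.41 to 11.63 in vehicle rats, and 9.94 to 10.23 in galactosamine rats at 3 h against 10.93 to 11.49 in vehicle rats. At 24 h, 3 of these 12 markers were above vehicle and 4 below it, and at 3 h, 1 was above and 1 below. The brightest members weigh most in such a sum. How far a change in the share of these cells enters the values of the other lists was not tested.

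Galactosamine gave smaller time differences in rats that took nevirapine for 7 d before it and went on taking it. Their last oral dose came 2 h before sampling at 24 h and 5 h before it at 3 h. Effects of the pretreatment and of the continued dosing cannot be told apart here. In combination rats, 4074 genes had a called time difference (28.7%; 16.1% higher and 12.6% lower), with a median absolute size over all genes of 0.295, against 0.482 with galactosamine alone. The difference between the courses, combination minus galactosamine, was called for 5153 genes (36.2%), 2234 higher (15.7%) and 2919 lower (20.5%). Only 2818 were called when the arrays of the compared groups alone were fitted. The vehicle rats cancel out of this difference. Ribosome biogenesis kept its direction, with 47 of 47 genes higher in the combination at a median of 1.25, against 1.90 with galactosamine alone, and for 29 of the 47 the course was called lower in the combination. For fatty acid oxidation the median was -0.53 in the combination and -1.99 with galactosamine alone, and 22 of 27 genes had a called positive difference. For bile acid genes the median was -0.53 in the combination and -1.95 with galactosamine alone, with 15 of 22 called positive. Immediate early genes had -0.28 in the combination and 1.46 with galactosamine alone, and 19 of 27 were called negative. Cholesterol synthesis genes had -0.83 in the combination and -0.73 with galactosamine alone, with 2 of 18 called.

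The single genes with the largest differences include the stress factor Atf3 and genes of fatty acid metabolism. Atf3 had 4.89, 5.44 and 8.82 in combination rats at 24 h and 7.58, 7.25 and 8.18 at 3 h, against 9.78, 10.66 and 11.35 at 24 h and 6.08, 5.76 and 5.4 at 3 h in galactosamine rats (difference log2 -6.13 ± 0.87, adjusted p = 6.14e-07). Rnd1 had 5.82, 5.75 and 8.49 in combination rats at 24 h and 8.36, 4.73 and 5.34 at 3 h, and its time difference in the combination was log2 0.63 ± 0.75 (difference from galactosamine alone log2 -5.99 ± 0.75). Cish and Bcl3 had differences of log2 -4.42 ± 0.51 and -4.32 ± 0.43. In the other direction, Vnn1 had 7.96, 9.49 and 8.32 in combination rats at 24 h and 9.55, 10.21 and 9.24 at 3 h, and its time difference in the combination was log2 -1.36 ± 0.58 (difference from galactosamine alone log2 3.98 ± 0.58). Hao2 and Fabp2, an intestinal type fatty acid binding protein, had 3.67 ± 0.40 and 3.60 ± 0.48. Acot1, an acyl-CoA thioesterase, had the largest positive value, 5.38 ± 1.37 (adjusted p = 0.00203), but its rats were spread, at 7.39, 11.32 and 6.86 in combination rats at 24 h and 6.3, 4 and 8.31 in galactosamine rats at 24 h. For Atf3, Rnd1 and Cish 1 combination rat at 24 h, rat79, stood nearer to the galactosamine rats than rat67 and rat69. The same was seen in other genes. In combination rats at 24 h Pvr had 7.03, 7.13 and 9.96, Dusp5 6.77, 6.69 and 9.63, and Cyp8b1 10.66, 11.19 and 7.54, with rat79 last. It was not seen in Vnn1. The combination group at 24 h was thus mixed for these genes. Without rat79, 4971 genes had a called difference from galactosamine alone, against 5153 with it.

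**Figure D5:**
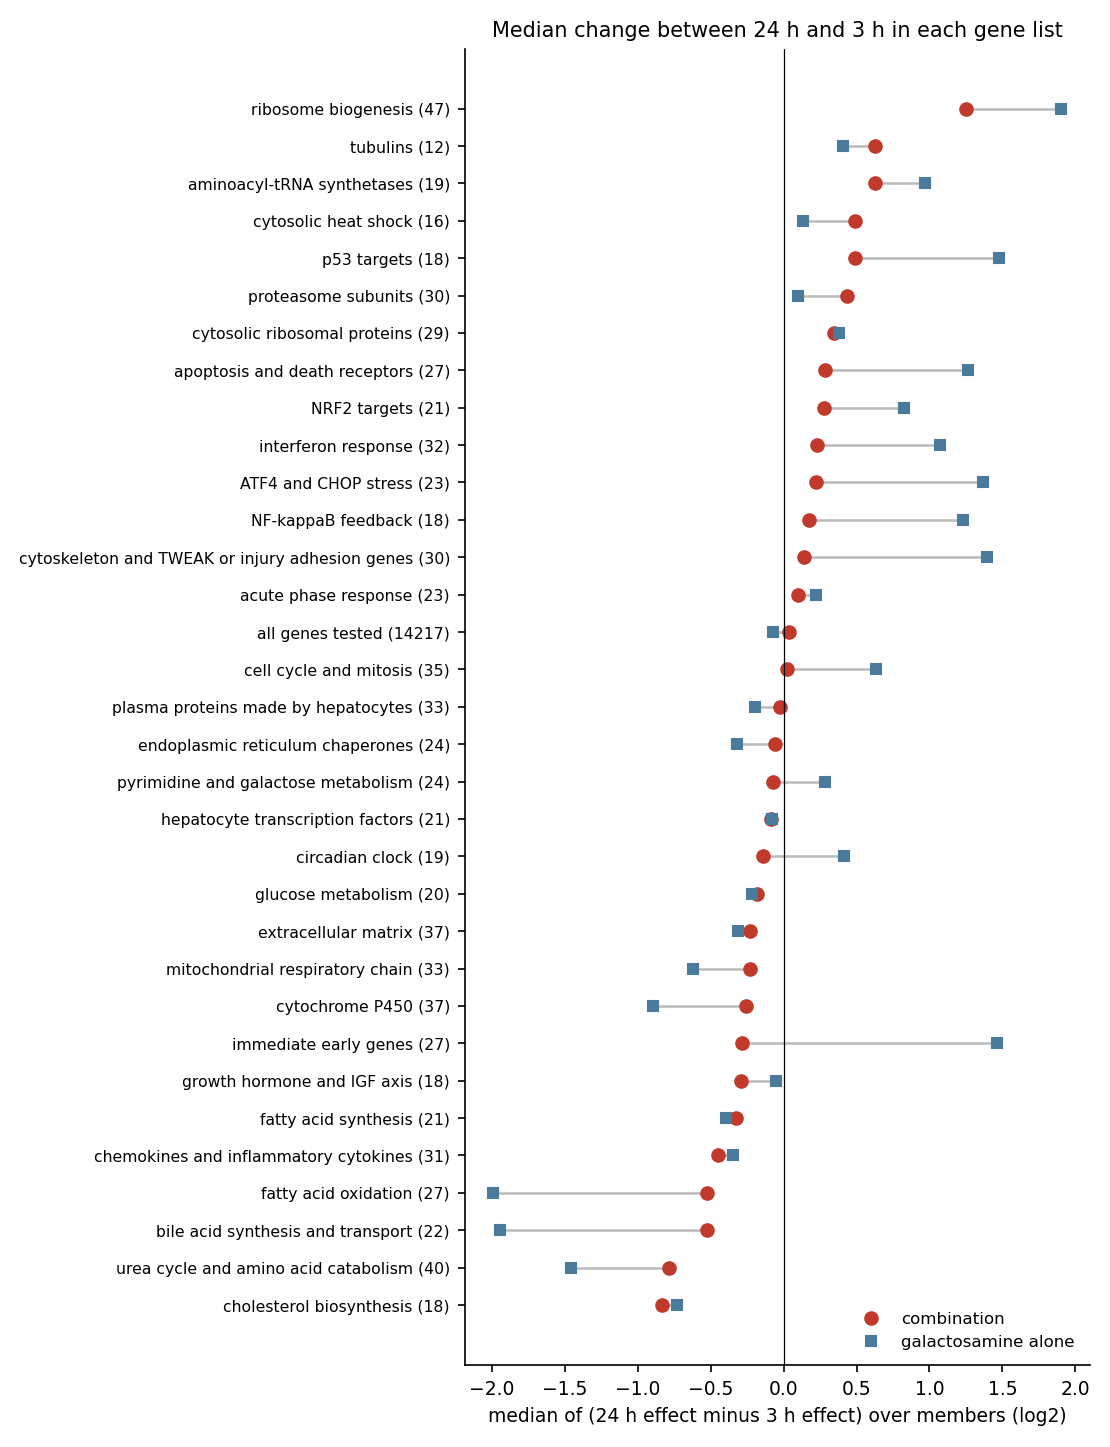
Median time difference (effect at 24 h minus effect at 3 h, log2) over the measured members of each functional gene list in combination rats (circles) and in rats given galactosamine alone (squares), with the number of members in brackets; the 2 share their vehicle rats. Fatty acid oxidation and bile acid genes lie at -0.53 in the combination and at -1.99 and -1.95 with galactosamine alone, and ribosome biogenesis lies at 1.25 against 1.90.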

How the data were processed

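Liver RNA of each rat was hybridised to an Affymetrix rat array. The authors deposited log2 signals of 31099 probe sets for 50 rats. The submitters' processing notes name RMA and limma without versions. Deposited signals were neither rescaled nor filtered here. Each gene was read from the brightest of its probe sets that the platform annotation gives 1 symbol (20826 probe sets, 14217 genes).

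Limma 3.58.1 (R 4.3.3) fitted 17 group means to all 50 arrays with two-sided tests, and Benjamini-Hochberg adjustment ran over all genes of a comparison. P-values set a difference against the spread between rats within groups, estimated over all 50 arrays and not the compared groups alone. The number of arrays limits the precision. The labels give no batch or date. The scripts were tested on simulated data.

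Groups, the 42 gene lists and the rule for named genes were chosen with earlier results of these data known. The rule took the 12 largest rises and 12 largest falls without overlap between rats (no symbols starting with LOC, RGD or MGC). It added up to 4 members per list by size of time difference, 8 genes in each direction that receded from a 3 h effect, 6 crossings in each direction and 4 differences from the combination in each direction. Genes with printed promoters and hepatocyte markers were added. Lists had no test of their own.

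The alternatives were fitting the compared groups only, a trended robust prior, dropping the dimmest 40% of genes, averaging probe sets, cyclic loess normalization, array weights, GAPDH as a covariate, comparing galactosamine rats without vehicle, and leaving out each rat. Dropping genes below the bacterial probe sets in all 4 groups was chosen after seeing the data. Tables and plots were made in Python 3.11.15.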

Additional observations from a re-analysis of the deposited data

Results flagged for a closer look

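Several results differ between the times or between the treatments by a test of the difference itself. The effect of galactosamine differed between 24 h and 3 h in 7384 genes. Of all genes, 1314 were higher than vehicle at 24 h and lower at 3 h, and 598 were lower at 24 h and higher at 3 h. The leading crossings upwards, as time differences in log2, were Srxn1 (7.07), C8h15orf39 (5.78), Trmt61a (5.66), Lurap1l (5.56), Osgin1 (5.42) and Riox1 (5.38). The leading crossings downwards were Serpina7 (-4.88), Sult1c2 (-4.44), Elovl2 (-4.35), Lepr (-3.95), Tmem135 (-3.84) and Reps2 (-3.68). For C8h15orf39, Tmem135 and Reps2 the lowest of the 4 groups did not exceed background, so these 3 sizes are not exact.

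The time difference itself differed between the combination and galactosamine alone in 5153 genes. The largest differences, combination minus galactosamine in log2, were Acot1 (5.38), Vnn1 (3.98), Hao2 (3.67) and Fabp2 (3.60) upwards, and Atf3 (-6.13), Rnd1 (-5.99), Cish (-4.42) and Bcl3 (-4.32) downwards.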

How the results depend on the processing

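The count of genes with a called time difference was 5890 of the 8530 genes kept without the dimmest, a larger share than the 51.9% of all genes. It was 8212 with array weights, and 9700 when galactosamine rats were compared without vehicle. Without each rat it lay between 6893 and 7366. The 24 h effect gave 7567 to 8156 genes and the 3 h effect 3862 to 4304 without each rat. Crossings upwards numbered 1133 to 1395 and downwards 443 to 644. The difference from the combination fell to 2818 genes when only the compared groups were fitted, and gave 4256 to 5420 without each rat. The difference between vehicle groups, 169 genes, is the least stable: 72 with only these groups, 912 with array weights, and 32 to 279 without each rat (32 without rat1, 43 without rat4, 58 without rat2, 79 without rat5, 279 without rat3). The causes were not tested. Of 183 named genes, 168 kept their direction and side of the threshold in each of the 21 settings that tested them, and none reversed; 155 were tested without the dimmest genes and 178 without genes below the bacterial probe sets. The median of the plasma protein list was 0.20 with cyclic loess and -0.20 as deposited, and that of pyrimidine genes -0.12 without the dimmest genes and 0.28 with them. Dim probe sets and 3 rats per group limit small changes. No paired analysis was possible because each rat number occurs in only 1 group.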
